A study of Drosophila melanogaster with 16 samples.

Results

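The genes described here carry names given to products of the male reproductive tract of *Drosophila melanogaster*, and they were read in RNA of isolated hearts. They were chosen by name, and *Acp65Aa* and *Acp1*, whose symbols have the same form, were left out by the rule. A probeset, the set of short probes that reads a transcript on the array, entered when its gene symbol was *Mst*, *Sfp* or *Acp* followed by a digit, or began with *ProtA*, *ProtB*, *Mtl77* or *S-Lap* (no *Mtl77* probeset was found), and when it had no other symbol. This gave 43 probesets for 43 genes out of 18769 probesets tested: 17 *Mst* genes (male-specific transcripts), 14 *Acp* genes (accessory gland proteins), 6 *Sfp* genes (seminal fluid proteins), 4 *S-Lap* genes (sperm leucyl aminopeptidases) and the 2 protamine genes. A further 6 probesets carry such a name beside another symbol, a probeset shared by *ProtA* and *ProtB* among them, and were left out.

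Each of the 16 arrays read the RNA of 30 pooled hearts from flies 3 weeks old. The *sei* group (5 arrays) carried *seits1*, an EMS-induced allele on the second chromosome of seizure, a potassium channel of the hERG type, whose stop codon precedes the part of the channel that spans the membrane. Its control was Canton-S (WtCS, 5 arrays). The *KCNQ* group (3 arrays, labelled KCNQ37 and named *KCNQ370* in the study's methods) carried an imprecise P-element excision at *KCNQ*, another potassium channel gene, and its control was KCNQ97, the precise excision line (WtPE, 3 arrays). Both mutations were present in the whole fly and not only in the heart. Flies were separated by sex after eclosion, but the sex of the flies whose hearts were pooled is not given in the sources used here. Fat and tracheoles were sucked away before the hearts were lifted out. The labels call the arrays of a group biological replicates, although the array names give the same sample code to *sei* arrays 2 and 5, to *sei* arrays 3 and 4 and to WtCS arrays 2 and 3.

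In a fly most of these transcripts come from the testis and the accessory glands of the male. In the testis, elongating spermatids pack their DNA with protamines in place of histones and build a long tail, and many of their messenger RNAs are stored for translation late in sperm development. The accessory glands secrete proteins into the seminal fluid, which change the behaviour and egg laying of mated females and help sperm to be stored. Neither organ belongs to the heart, which lies along the dorsal wall of the abdomen above the gut and the reproductive tract.

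Values are log2 intensities. The median over all probesets of an array lay between 3.36 and 3.62. Arrays within the *sei* group correlated at 0.939 to 0.991 over all probesets and those within WtCS at 0.956 to 0.982. The probeset for *sei* itself read 3.89 to 5.25 in *sei* hearts and 5.31 to 6.03 in WtCS hearts, a change of -0.96 ± 0.25 (SE, adjusted p = 0.0212), and no probeset with *KCNQ* as its only symbol was matched. *Hand*, a cardiac transcription factor, read 11.83 to 12.43 on all 16 arrays. The 10 measured heart genes were not all bright, and *prc*, the dimmest of them, read 1.40 to 2.48. Of 10 heart genes 2 were lower in *sei* than in WtCS hearts, where 4.66% of all probesets were called lower. These were *pnr* by -1.14 ± 0.19 (adjusted p = 0.00112) and *tup* by -1.06 ± 0.23 (adjusted p = 0.00679). *pnr* averaged 6.01 in *sei*, 6.17 in *KCNQ*, 6.41 in WtPE and 7.15 in WtCS hearts. *tup* averaged 5.72, 5.74, 5.71 and 6.78 in that order, so that WtCS was the highest group in both. Of 4 genes of the female fat body and yolk, *Yp1*, *Yp2* and *Yp3* read between 11.95 and 13.29 on all arrays and *fit* between 8.51 and 13.11, and 7 fertility genes of the Y chromosome read between 0.84 and 2.87. *msl-2*, which acts in male dosage compensation, read 4.36 to 5.61 in *sei* hearts and 6.83, 7.43, 5.70, 4.19 and 4.25 on WtCS arrays 1 to 5, and 6.72 to 7.05 in *KCNQ* hearts and 6.91 to 7.16 in WtPE hearts.

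The probesets of the 43 genes covered a wide range of intensities and differed in how much they varied. *Acp95EF* read 9.69 to 10.61 on all arrays, and *Mst85C* read 7.32 to 8.60. *Mst36Fa* and *Mst36Fb*, neighbouring genes on chromosome arm 2L, read 1.01 to 2.42 throughout. None of the 43 genes lies on the X chromosome, which holds 16.2% of the probesets with a single matched symbol. The arm 3R holds 14 members, among them the adjacent genes *Mst84Da*, *Mst84Db*, *Mst84Dc* and *Mst84Dd*, and 2L holds 15, among them the adjacent pair *ProtA* and *ProtB*.

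**Figure D1:**
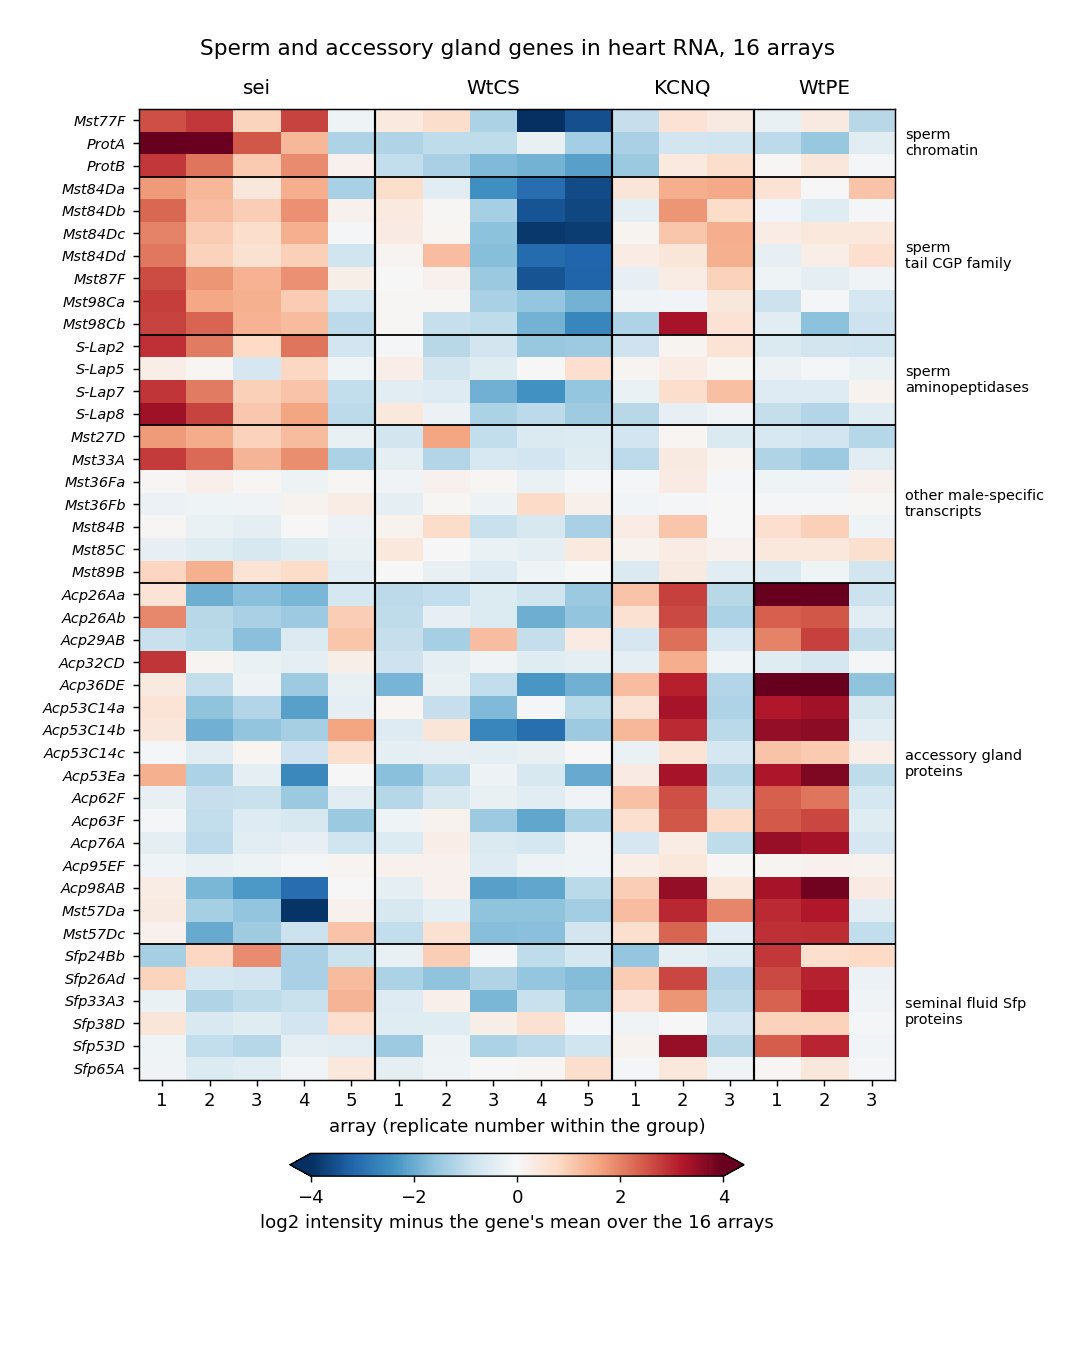
Log2 intensity of each of the 43 genes (rows, grouped by role) on each of the 16 arrays (columns), as the difference from the mean of that gene over the 16 arrays; red is higher and blue is lower, and the colour scale ends at 4 log2 units. The sperm genes in the upper block are high on *sei* arrays 1 to 4 and low on WtCS arrays 4 and 5, and the seminal fluid genes in the lower block are high on WtPE arrays 1 and 2 and on *KCNQ* array 2.

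The comparison of *sei* with WtCS hearts sets a whole-fly mutant against its control strain. Whether a change came from the channel, from other differences between the strains or from carried-over tissue was not tested. Most genes of sperm were higher in *sei* than in WtCS hearts, by 4.41-fold to 10-fold, and the genes of seminal fluid did not pass the test. Of the 43 genes, 13 passed at an adjusted p under 0.05 and all 13 were higher (limma, Benjamini-Hochberg over all probesets), where 11.1% of all probesets passed in either direction and 6.47% were higher. The study's cut-offs were a fold over 2 and a p under 0.05, from a test it did not name. Here they were applied to limma's unadjusted p, also in comparisons the study did not report, and are called the study's rule. By this rule 15 genes were higher, against 6.23% of all probesets. The 13 called at the adjusted threshold were 12 of the 14 genes for sperm chromatin, sperm tail and sperm aminopeptidases, with *Mst33A* as the other. The median change of those 14 genes was 2.59 on the log2 scale, against -0.02 over all probesets. In pooled tissue, more cells of a type and more RNA per cell cannot be told apart.

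All 3 chromatin genes passed, with changes above 3 on the log2 scale. *ProtB*, a protamine that replaces histones in the sperm nucleus, read 8.26, 7.57, 6.46, 7.31 and 5.58 on *sei* arrays 1 to 5, against 4.45, 4.11, 3.67, 3.53 and 3.26 on WtCS arrays 1 to 5. Every *sei* array stood above every WtCS array, and the change was 3.23 ± 0.47 (SE, adjusted p = 0.000372), or 9.38-fold. Its near-identical neighbour *ProtA* read 6.98, 6.78, 5.31, 4.15 and 1.60 in *sei* hearts, against 1.63, 1.82, 1.81, 2.54 and 1.46 in WtCS hearts. *ProtA* was thus well above the WtCS arrays on *sei* arrays 1 to 4 and within their range on *sei* array 5 (change 3.11 ± 0.74, adjusted p = 0.0129). *Mst77F*, a linker-histone-like protein of sperm chromatin that has copies on the Y chromosome, read 9.13, 9.38, 7.43, 9.24 and 6.37 in *sei* hearts, against 6.92, 7.25, 5.27, 2.46 and 3.01 in WtCS hearts. Its change was 3.33 ± 0.87 (adjusted p = 0.0212), and *sei* array 5 lay below WtCS arrays 1 and 2.

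The next 7 genes encode proteins of the sperm tail that are rich in cysteine, glycine and proline. All 7 were higher in *sei* than in WtCS hearts on average. Of these 6 passed, with changes of 2.14 to 3.17, the exception being *Mst84Dd* at 2.08 ± 0.74 (adjusted p = 0.0844). WtCS had the lowest average of all groups for each of these genes. *Mst84Da* averaged 7.85 in *sei*, 8.28 in *KCNQ*, 7.71 in WtPE and 5.37 in WtCS hearts. *Mst87F* averaged 8.79, 7.53, 6.99 and 5.62 in that order. *Mst87F* read 9.83, 9.0, 8.62, 9.04 and 7.46 on *sei* arrays 1 to 5, against 7.20, 7.39, 5.73, 3.78 and 4.02 on the WtCS arrays. The groups did not overlap, although the lowest *sei* array and the highest WtCS array differed by less than 0.1 (change 3.17 ± 0.64, adjusted p = 0.0048). *Mst84Dc* read 10.82, 9.86, 9.53, 10.24 and 8.80 in *sei* hearts, against 9.17, 8.91, 7.20, 4.97 and 5.04 in WtCS hearts. Here *sei* array 5 lay just below WtCS arrays 1 and 2 (change 2.79 ± 0.72, adjusted p = 0.0197). It was also below WtCS array 1 for *Mst84Db* (change 2.89 ± 0.71, adjusted p = 0.0157) and below WtCS arrays 1 and 2 for *Mst84Da* (2.48 ± 0.73, adjusted p = 0.0393). The pair *Mst98Ca* and *Mst98Cb*, which are neighbours on 3R, rose by 2.14 ± 0.52 (adjusted p = 0.0148) and 2.61 ± 0.79 (adjusted p = 0.0435). Only *ProtB* and *Mst87F*, 2 of the 43 genes, had every *sei* array above every WtCS array, where 3.75% of all probesets did.

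Of 4 sperm aminopeptidases, proteins abundant in the mature sperm, *S-Lap2*, *S-Lap7* and *S-Lap8* rose in *sei* hearts and *S-Lap5* did not pass (change 0.12 ± 0.28, adjusted p = 0.86). *S-Lap7* read 7.71, 6.92, 5.82, 6.00 and 3.87 in *sei* hearts, against 4.42, 4.33, 2.93, 2.42 and 3.32 in WtCS hearts. *S-Lap8* read 8.23, 7.54, 5.91, 6.41 and 3.80 in *sei* hearts, against 5.26, 4.61, 3.58, 3.78 and 3.40 in WtCS hearts. In both genes *sei* arrays 1 to 4 were above all WtCS arrays and *sei* array 5 was among them. The changes were 2.58 ± 0.58 (adjusted p = 0.00959) for *S-Lap7*, 2.25 ± 0.63 (adjusted p = 0.0297) for *S-Lap8* and 2.40 ± 0.54 (adjusted p = 0.00938) for *S-Lap2*. Among 7 other male-specific transcripts, *Mst33A* alone passed, at 6.23, 5.69, 4.79, 5.27 and 2.17 in *sei* hearts against 3.07, 2.26, 2.79, 2.67 and 2.94 in WtCS hearts (change 2.09 ± 0.57, adjusted p = 0.0262). Its probeset may also read other transcripts. *Mst85C* went the other way by -0.48 ± 0.17 (adjusted p = 0.0888).

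**Figure D2:**
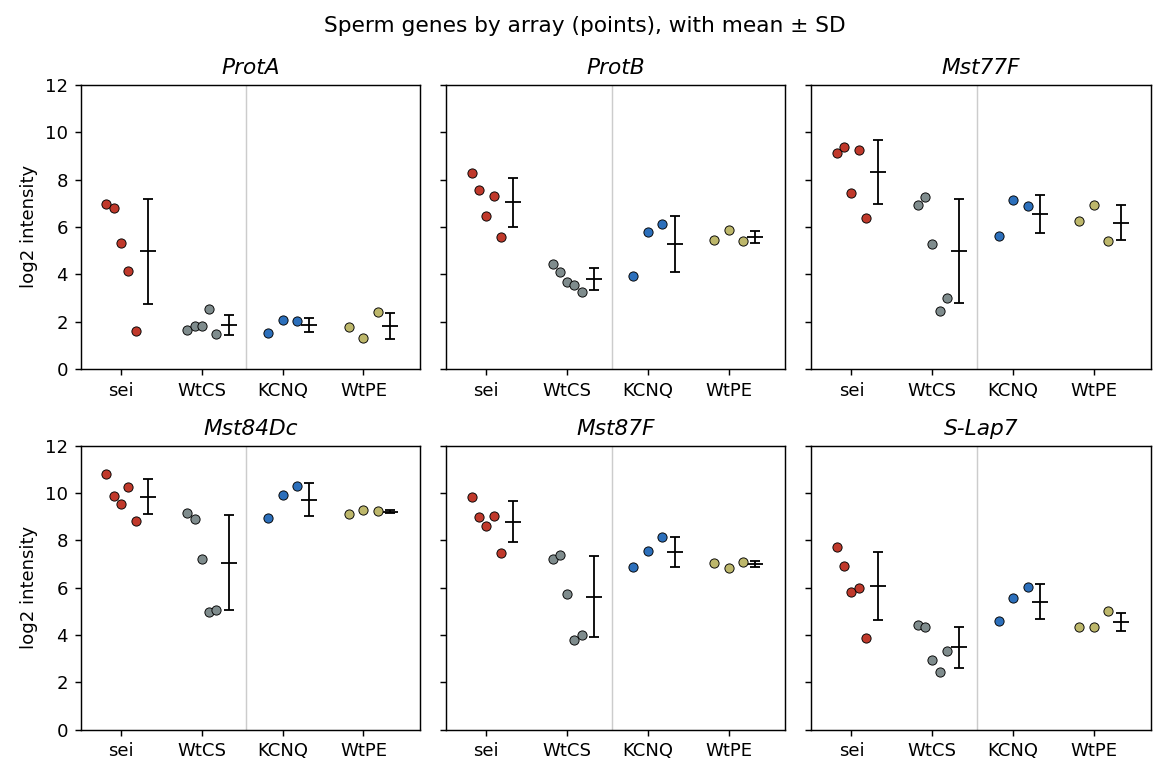
Log2 intensity of 6 sperm genes on each array (points, replicate 1 at the left of each group) with the mean ± SD of the group beside them, for *sei*, WtCS, *KCNQ* and WtPE hearts. *ProtB* averaged 7.04 ± 1.04 in *sei* hearts and 3.81 ± 0.48 in WtCS hearts without overlap, whereas *ProtA* was high only on *sei* arrays 1 to 4.

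The same arrays were high or low for nearly every sperm gene. *Sei* array 1 was the highest *sei* array for 12 of the 14 genes and *sei* array 5 the lowest for 13 of them, and their medians were 8.14 and 4.50. *Sei* array 5 shares its sample code with *sei* array 2, whose median was 7.23. In WtCS hearts the medians were 4.89 and 4.47 on arrays 1 and 2, 3.63 on array 3 and 2.74 and 3.24 on arrays 4 and 5. Without *sei* array 5 the number that passed was 16 (8.71% of all probesets were then called higher), without *sei* array 1 it was 7 (4.16%), and without *sei* array 2 it was 8 (4.33%). *Mst84Db*, *Mst87F*, *Mst98Ca*, *ProtA*, *ProtB*, *S-Lap2* and *S-Lap7* passed with any single array left out, whereas *Mst98Cb* passed in 4 and *Mst84Da* in 6 of the 16 fits that each left out an array.

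The array names also place the arrays in runs, which may not be batches of hybridisation or extraction. WtCS arrays 4 and 5, *sei* arrays 4 and 5 and all *KCNQ* and WtPE arrays formed run A, WtCS arrays 1 and 2 formed run B, and WtCS array 3 and *sei* arrays 1 to 3 formed run C. Within run A 7 genes passed (2.75% of all probesets were called higher there), within run C 9 passed against a lone WtCS array, which was assumed to vary like the rest since the spread was pooled over all 16 arrays (2.78%), and with run as a covariate 11 passed (5.51%). All of these were among the 14 sperm genes and all were higher. The median change of the 14 genes was 2.70 in run A, 3.30 in run C and 2.97 with run as a covariate. Of the 13 genes called over all arrays, *Mst77F*, *Mst84Da*, *Mst84Db*, *Mst84Dc*, *Mst87F* and *ProtB* passed both in run A and with the covariate. *ProtA* and *Mst33A* did not pass in run A, with changes of 0.87 (adjusted p = 0.556) and 0.92 (adjusted p = 0.607). *Mst98Ca*, *Mst98Cb*, *S-Lap2*, *S-Lap7* and *S-Lap8* did not pass in run A either. With the covariate *ProtA*, *Mst33A* and *Mst98Cb* did not pass (adjusted p of 0.0525 to 0.118).

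Other genes of the testis were examined with the same fit. Of 22 spermatid genes outside the 43, 12 passed and all 12 were higher in *sei* hearts (median change 1.34), where 6.47% of all probesets were called higher and 4.66% lower. *tHMG2*, a chromatin protein of the histone-to-protamine transition, changed by 2.89 ± 0.54 (adjusted p = 0.00299), *betaTub85D*, the tubulin of the sperm tail, by 2.75 ± 0.58 (adjusted p = 0.0067), and *tHMG1* by 2.72 ± 0.71 (adjusted p = 0.0222). *betaTub85D* read 7.31, 6.58, 4.51, 6.39 and 3.23 in *sei* hearts, so that array 5 was again the lowest, against 2.39 to 3.22 in WtCS hearts. Of 15 regulators that act earlier in the testis, *sa* was higher by 1.52 ± 0.41 (adjusted p = 0.0254) and 13 did not pass. *bam*, which drives the early germ line out of stem cell divisions, was lower by -2.16 ± 0.24 (adjusted p = 2.5e-05). *bam* read 3.71 to 4.96 in WtCS hearts, against 1.80 to 2.54 in *sei*, 2.44 to 2.70 in *KCNQ* and 2.20 to 2.53 in WtPE hearts, so that WtCS was the group set apart. Of 12 listed Y-linked fertility genes 7 were measured, and none of the 7 passed. They read 0.84 to 2.87 on all arrays, below the median of every array, so this test could show little. Of 19 ovary genes 3 were lower in *sei* hearts, namely *BicC* by -2.80 ± 0.57 (adjusted p = 0.00521), *orb* by -2.46 ± 0.59 (adjusted p = 0.0137) and *ovo* by -2.03 ± 0.48 (adjusted p = 0.0125), and the list's summed level was 9.04 to 11.53 in *sei* hearts and 10.42 to 12.77 in WtCS hearts. *fit*, a gene of the female fat body, was lower by -1.83 ± 0.57 (adjusted p = 0.0497), close to the threshold. It read 10.38, 8.51, 10.46, 12.14 and 12.64 on *sei* arrays 1 to 5, against 12.32 to 12.83 in WtCS hearts. The low arrays were thus *sei* arrays 1 to 3, all of run C, and *sei* arrays 4 and 5 of run A were near or within the WtCS range. The summed level of the spermatid list was 7.96 to 10.72 on *sei* arrays and 7.21 to 8.84 on WtCS arrays. How far tissue of the testis or ovary was carried along with the hearts was not tested.

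The seminal fluid genes gave no call in *sei* hearts. Of the 22 (14 *Acp* and 6 *Sfp* genes with *Mst57Da* and *Mst57Dc*, which are also transcribed in the accessory gland), 0 passed between *sei* and WtCS hearts by limma at the adjusted or the unadjusted threshold of 0.05, where 24.3% of all probesets passed the unadjusted one. Their changes ran from -0.29 to 1.36, with a median of 0.11 and 12 of 22 above 0, where 47.7% of all probesets were above 0. *Acp36DE*, a glycoprotein needed for sperm storage, read 4.74, 3.44, 4.19, 2.94 and 4.08 in *sei* hearts, against 2.53, 4.09, 3.40, 2.07 and 2.45 in WtCS hearts. The groups overlapped (change 0.97 ± 0.97, adjusted p = 0.619). *Sfp26Ad* had the largest change, with 5.91, 4.34, 4.28, 3.74 and 6.30 in *sei* hearts, against 3.75, 3.41, 3.82, 3.47 and 3.31 in WtCS hearts (1.36 ± 0.71, adjusted p = 0.264). *Sei* array 5, the lowest for sperm genes, was the highest *sei* array for 9 of the 22, and *sei* array 1 was the highest for 11. Of 20 other seminal fluid genes, *Spn75F*, a serpin, was higher by 2.08 ± 0.47 (adjusted p = 0.0102) and 19 did not pass.

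**Figure D3:**
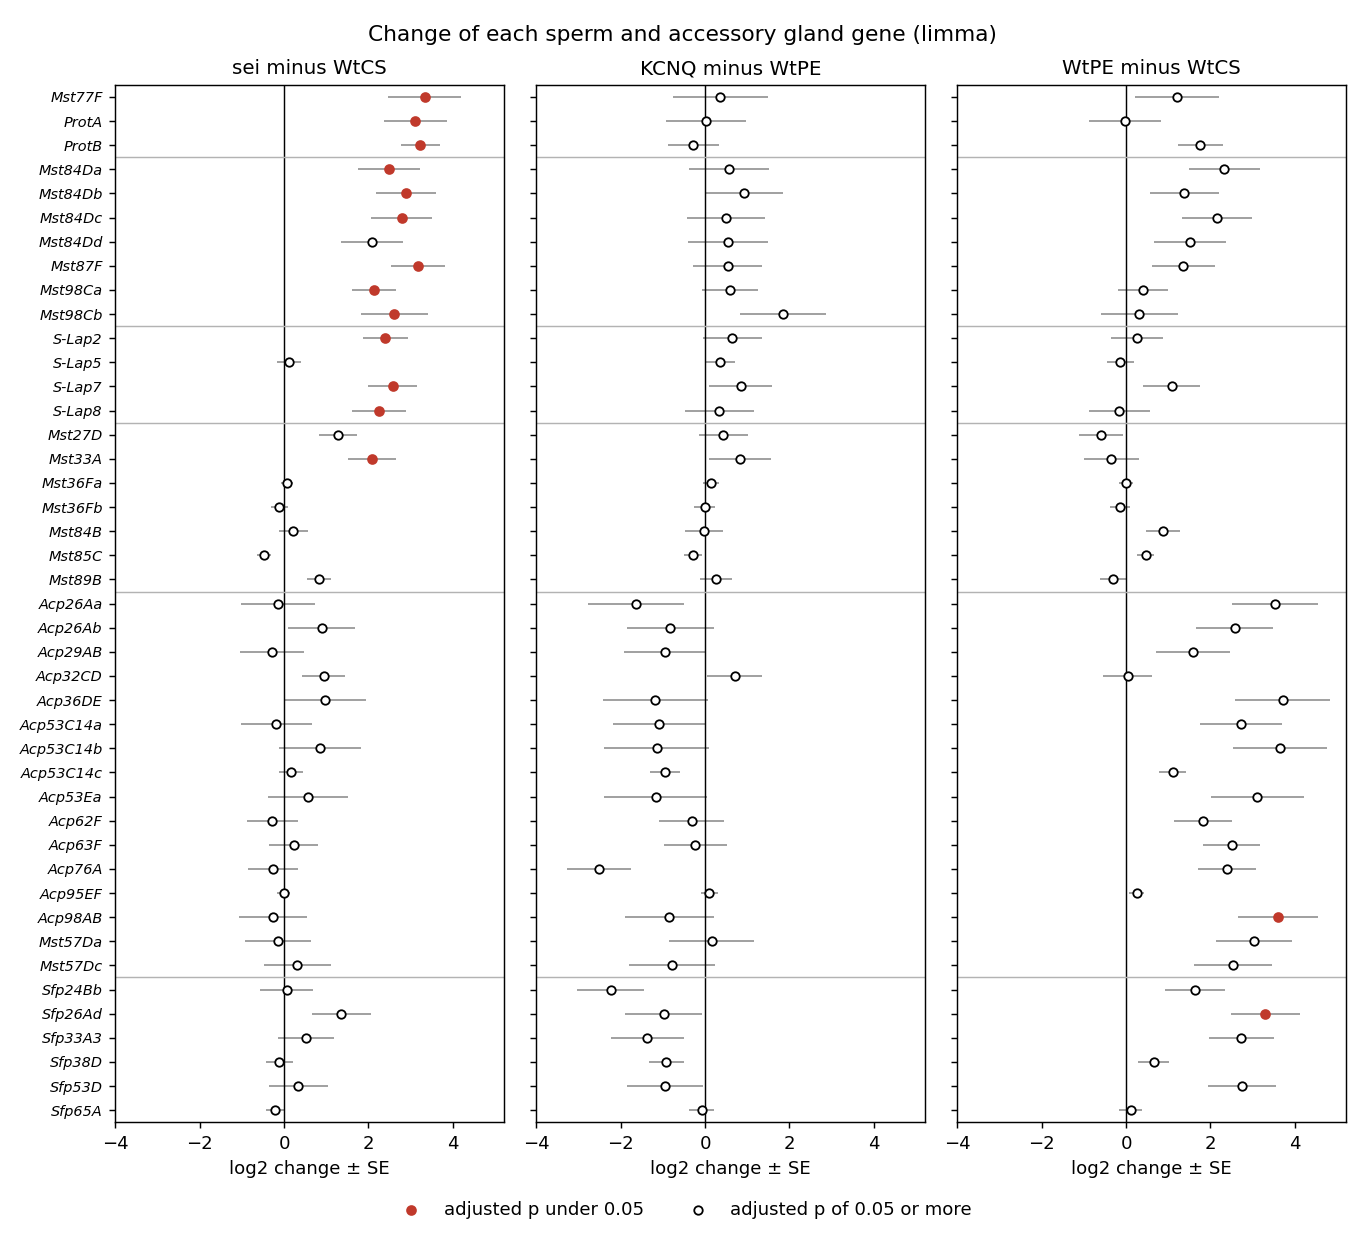
Change of each of the 43 genes on the log2 scale (x axis, estimate ± SE from limma) for *sei* minus WtCS, *KCNQ* minus WtPE and WtPE minus WtCS; filled points have an adjusted p under 0.05. Filled points are 13 genes at the left, 12 of them of sperm, none in the middle and *Acp98AB* and *Sfp26Ad* at the right.

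In the comparison of *KCNQ* with WtPE hearts, 0 of the 43 genes passed by limma, where 0.17% of all probesets did. At an unadjusted p under 0.05, 4 were lower and 0 were higher, with 2.81% of all probesets in either direction, and 2 of the lower genes had a fold over 2 (0.719%). The sperm genes leaned upwards, with 13 of 14 above 0 and a median of 0.54, and the seminal fluid genes leaned downwards, with 3 of 22 above 0 and a median of -0.95, while over all probesets 51.7% were above 0 and the median was 0.01. *ProtB* read 3.94, 5.80 and 6.11 on *KCNQ* arrays 1 to 3, against 5.46, 5.86 and 5.39 on WtPE arrays 1 to 3 (change -0.28 ± 0.60, adjusted p = 1). *ProtA* stayed at 1.51 to 2.06 in *KCNQ* hearts and 1.32 to 2.41 in WtPE hearts, within or near the WtCS range of 1.46 to 2.54. *Mst98Cb* had the largest upward change, at 3.25, 7.79 and 5.06 in *KCNQ* hearts against 4.06, 2.86 and 3.65 in WtPE hearts, with *KCNQ* array 1 inside the WtPE range (1.85 ± 1.02, adjusted p = 1).

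The seminal fluid signal differed widely between the arrays of each of these lines. *KCNQ* array 2 was the highest *KCNQ* array for all 22 seminal fluid genes, with a median of 6.24, against 4.55 and 2.92 on *KCNQ* arrays 1 and 3. Among WtPE arrays the medians were 6.67 and 7.17 on arrays 1 and 2 and 3.41 on array 3, which was the lowest for 19 of the 22. *Acp26Aa*, the ovulation hormone ovulin, read 4.58, 6.17 and 2.35 in *KCNQ* hearts, against 7.68, 7.75 and 2.59 in WtPE hearts. *KCNQ* array 3 and WtPE array 3 were thus both close to the *sei* and WtCS levels of 1.49 to 3.99. *Acp76A*, a serpin, had the largest downward change, with 1.47, 2.46 and 1.13 in *KCNQ* hearts, against 5.63, 5.49 and 1.48 in WtPE hearts (-2.51 ± 0.76, adjusted p = 0.718). As array 3 was the low WtPE array for this gene, leaving it out was bound to enlarge the change. The change was then -3.87 (limma, adjusted p = 0.000119), resting on WtPE arrays 1 and 2. *Acp76A* was in that fit the only gene of the 43 to pass (0.181% of all probesets were called lower). It did not pass with any other single array left out. *Sfp24Bb*, at 1.89, 3.09 and 2.91 in *KCNQ* hearts against 6.26, 4.11 and 4.24 in WtPE hearts, and *Mst85C* had every *KCNQ* array below every WtPE array, and *S-Lap5* had every *KCNQ* array above. The same was so for 5.01% of all probesets below and 5.81% above.

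The other lists gave no call in this comparison. Of 20 other seminal fluid genes 0 passed (median -0.96), and their summed level was 9.52 to 10.63 on *KCNQ* arrays and 10.40 to 12.21 on WtPE arrays. Of 22 spermatid genes 0 passed (median 0.18).

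**Figure D4:**
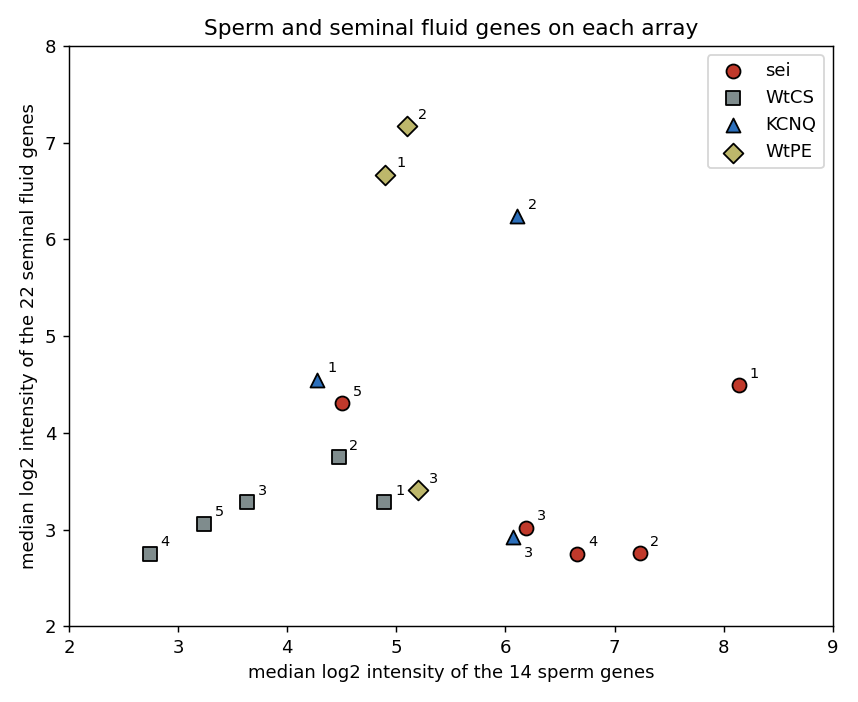
Each point is an array, with its replicate number: the median log2 intensity of the 14 sperm genes on the x axis and of the 22 seminal fluid genes on the y axis, for *sei*, WtCS, *KCNQ* and WtPE hearts. *Sei* arrays 1 to 4 lie furthest to the right, and WtPE arrays 1 and 2 and *KCNQ* array 2 lie highest.

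The control strains also differed from each other. This comparison shares its arrays with both mutant comparisons. The seminal fluid genes were higher in WtPE than in WtCS hearts in 22 of 22 cases (median 2.56), where 47% of all probesets were above 0. Only 2 of the 43 genes passed, both higher (3.67% of all probesets passed in either direction and 1.86% were higher), and 17 of the 22 had an unadjusted p under 0.05, as did 14.9% of all probesets. By the study's rule 20 of the 43 were higher, against 3.59% of all probesets. *Acp98AB* read 9.11, 9.67 and 6.12 on WtPE arrays, against 5.41, 5.98, 3.63, 3.72 and 4.72 on WtCS arrays. *Sfp26Ad* read 7.66, 8.10 and 4.80 in WtPE hearts, against 3.31 to 3.82 in WtCS hearts. In both genes all WtPE arrays were above all WtCS arrays, and the changes were 3.6 ± 0.94 (adjusted p = 0.0437) and 3.30 ± 0.82 (adjusted p = 0.0334).

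In several genes WtPE arrays 1 and 2 were far above WtCS, array 3 was near WtCS, and the test was not passed. *Acp36DE* read 8.52, 8.59 and 2.76 in WtPE hearts, against 2.07 to 4.09 in WtCS hearts (change 3.71 ± 1.12, adjusted p = 0.0859). *Acp53C14b*, of a cluster of related genes on 2R, read 11.12, 11.18 and 7.20 in WtPE hearts, against 4.58 to 8.10 in WtCS hearts (3.65 ± 1.12, adjusted p = 0.0929). *Mst57Da* read 9.73, 9.96 and 6.30 in WtPE hearts, against 5.13 to 6.40 in WtCS hearts, so that array 3 was again in the WtCS range. Without WtPE array 3, 14 genes passed and all 14 were seminal fluid genes, where 1.49% of all probesets were called higher. That array was the lowest WtPE array for 19 of the 22 seminal fluid genes, so leaving it out was bound to raise their change. Without WtPE array 1 or 2, or without WtCS array 4 or 5, 0 passed. Besides *Acp98AB* and *Sfp26Ad*, *Acp53C14c*, *Sfp53D* and *ProtB* had every WtPE array above every WtCS array, and 5.39% of all probesets did.

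**Figure D5:**
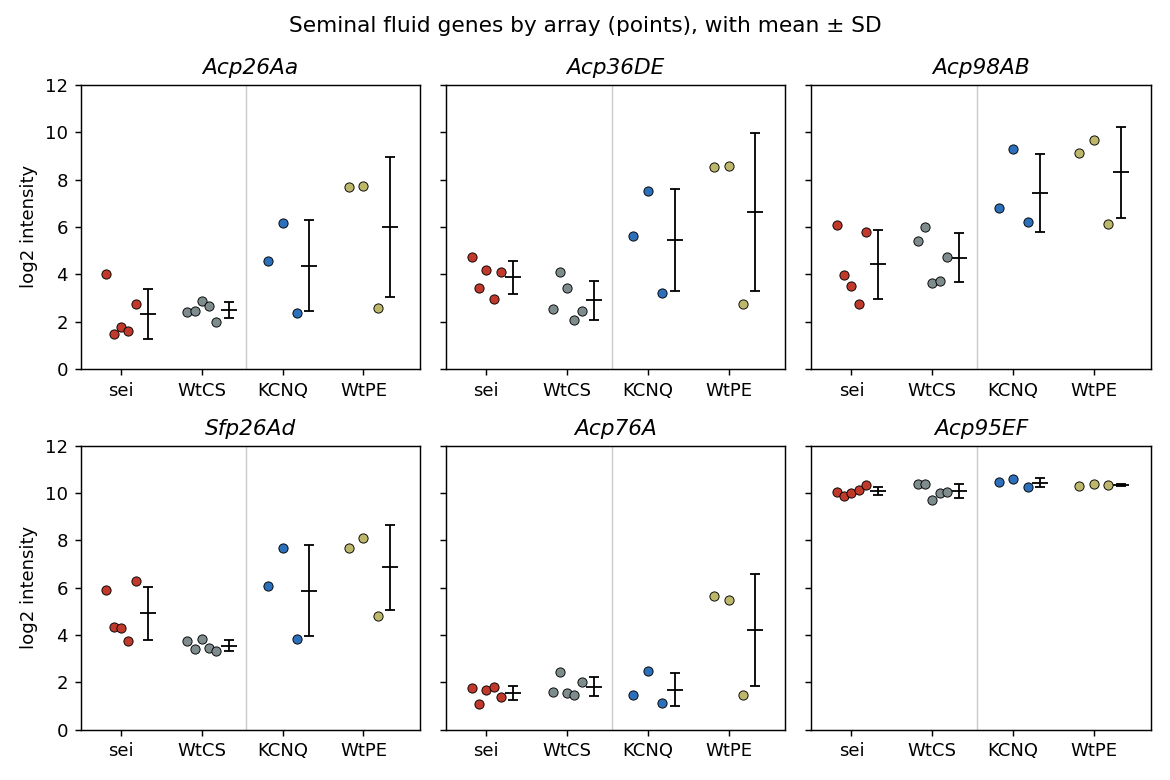
Log2 intensity of 6 seminal fluid genes on each array (points, replicate 1 at the left of each group) with the mean ± SD of the group beside them, for *sei*, WtCS, *KCNQ* and WtPE hearts. WtPE arrays 1 and 2 are high and WtPE array 3 is low in *Acp26Aa*, *Acp36DE* and *Acp76A*, and *Acp95EF* lies at 9.69 to 10.61 in all groups.

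The sperm genes were less far apart between the control strains, with a median change of 1.14 and 0 of 14 passing by limma, 3 of them with an unadjusted p under 0.05. The WtPE arrays agreed closely in some genes, for example 9.13, 9.27 and 9.24 for *Mst84Dc*, where WtCS arrays spanned 4.97 to 9.17. They agreed less in others, for example 6.23, 6.91 and 5.42 for *Mst77F*, where WtCS arrays spanned 2.46 to 7.25. For *ProtA* the SD was 0.55 in WtPE hearts and 0.41 in WtCS hearts. WtCS arrays 4 and 5, low for sperm genes, are the ones that share run A with WtPE. Within run A 7 genes passed, 6 of them sperm genes and the other *Sfp24Bb* (7.44% of all probesets were called higher), and neither *Acp98AB* nor *Sfp26Ad* did (adjusted p 0.0738 to 0.113). With run as a covariate 18 passed, 9 sperm and 8 seminal fluid genes among them (10.1%). Among the other lists, *Spn77Bc* and *BG642312*, both expressed in the male tract, were higher in WtPE hearts by 3.76 ± 0.94 (adjusted p = 0.0359) and 3.61 ± 0.93 (adjusted p = 0.0412). *Spn77Bc* read 8.62, 7.35 and 2.41 on WtPE arrays, with array 3 inside the WtCS range of 1.74 to 2.68. *BG642312* read 8.94, 8.64 and 4.98, all above the WtCS range of 3.02 to 4.44. In this comparison 18 of 20 other seminal fluid genes did not pass. Called lower were 1.81% of all probesets. The eggshell gene *yellow-g* was lower by -4.27 ± 0.60 (adjusted p = 0.000552), *bam* by -1.98 ± 0.27 (adjusted p = 0.000425) and the heart gene *tup* by -1.07 ± 0.26 (adjusted p = 0.0316). The part of carried-over reproductive tissue in these values was not tested.

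The difference of effects, *sei* minus WtCS less *KCNQ* minus WtPE, asks directly whether the mutants differed. It passed for *ProtB* alone among the 43 genes, at 3.51 ± 0.76 (adjusted p = 0.0277), where 1.39% of all probesets passed in either direction and 0.73% were higher. By the study's rule 6 genes were higher, against 4.38% of all probesets. *ProtB* changed by 3.23 in *sei* hearts and by -0.28 in *KCNQ* hearts. For *ProtA* the difference was 3.08 ± 1.21 (adjusted p = 0.334), for *Mst77F* 2.97 ± 1.41 (adjusted p = 0.474) and for *Mst87F* 2.63 ± 1.04 (adjusted p = 0.34). Among the genes of the other lists *bam* alone passed, at -2.29 ± 0.38 (adjusted p = 0.00432). Its average was 4.38 in WtCS hearts, against 2.22 in *sei*, 2.54 in *KCNQ* and 2.40 in WtPE hearts. The change of the other sperm genes from WtCS to *sei* hearts was therefore not shown to differ from their change from WtPE to *KCNQ* hearts. Within run A the difference for *ProtB* was 3.34 and missed the threshold (adjusted p = 0.146). It also missed it when *sei* array 2 or 4, WtCS array 4 or 5, *KCNQ* array 1 or any WtPE array was left out, at adjusted p of 0.0514 to 0.0932, and the lowest of these differences was 2.84, without *KCNQ* array 1.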

How the data were processed

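RNA of pooled hearts was hybridised to 16 one-colour Affymetrix Drosophila Genome 2.0 arrays. The authors checked the arrays with affyQCReport and summarised them by RMA in AltAnalyze (versions not given in the sources used here), and the deposited values are linear intensities of the RMA summaries, with no detection calls. They were turned back to log2 here. Of 18952 probesets 183 platform controls were left out. The probe-to-gene table gave 13646 probesets with 1 symbol, 402 with several and 4721 with none, and all 43 symbols matched the RefSeq gene table (Release 6 plus ISO1 MT), which served for names, chromosome arms and neighbours. Group means were fitted with limma 3.58.1 in R 4.3.3 over all 16 arrays (12 residual and 3.68 prior degrees of freedom), and p-values were adjusted by Benjamini-Hochberg over 18769 probesets. The code was tested on simulated data. The number of arrays limits the precision, and the p-values reflect array-to-array spread alone. Levels of different probesets cannot be set against each other.

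The genes, roles and marker lists were chosen with earlier results of these data known. Named with values were genes that passed in a comparison, the 3 brightest of each name family, the 5 most variable and the 5 largest changes in each comparison, and up to 4 passing genes of each marker list per comparison. *Mst84Dd*, *S-Lap5*, *Mst36Fa*, *Mst36Fb*, *Acp53C14c*, *Sfp53D*, *Hand*, *prc*, *msl-2*, *Yp1*, *Yp2* and *Yp3* were added after their values were seen. Summed levels are log2 of summed intensities. Array runs and sample codes were read from array names. Alternatives changed the samples in the fit, the prior, normalization between arrays, dim-probeset filter (mean log2 of at least 5), pseudocount (16), run, replicate block and call rule (fold over 2 and unadjusted p under 0.05).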

Additional observations from a re-analysis of the deposited data

Results flagged for a closer look

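*ProtB* was picked out because the change in *sei* hearts differed from the change in *KCNQ* hearts by a direct test. The difference was 3.51 ± 0.76 on the log2 scale (adjusted p = 0.0277, limma). Every *sei* array was above every WtCS array, while *KCNQ* arrays read 3.94, 5.80 and 6.11 against 5.46, 5.86 and 5.39 in WtPE hearts. The WtPE arrays were also all above the WtCS arrays, which read 3.26 to 4.45. The *sei* arrays read 5.58 to 8.26. In the groups of 5 arrays, 48 sets of values of the 24 named genes were screened for a lone far array and 0 were found.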

How the results depend on the processing

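No result turned its direction. Percentages in brackets are the share of all probesets tested that passed in either direction under the same setting, unless a direction is named. For *sei* minus WtCS the count of 13 became 7 with a separate fit for each pair (6.68%). It became 6 with the filter on dim probesets (21.8%) and 7 in run A alone (4.56%), and leaving out 1 array gave 7 to 16. Run C alone, added after seeing the data, gave 9. For *KCNQ* minus WtPE the count of 0 became 2 with the study's rule of fold and unadjusted p (0.719% lower), and leaving out 1 array gave 0 to 1. For the difference of effects the count of 1 became 0 with a pseudocount of 16 (1.46%) and 3 with run as a covariate (2.45%). It became 2 in run A alone (1.79%) and 2 with arrays of a sample code averaged (2.64%). With the study's rule it was 6 (4.38% higher), and leaving out 1 array gave 0 to 2. For WtPE minus WtCS the count of 2 became 4 with the filter on dim probesets (11%) and 18 with run as a covariate (19.2%). It became 7 in run A alone (12.7%) and 4 with sample codes averaged (6.34%). With the study's rule it was 20 (3.59% higher), and leaving out 1 array gave 0 to 14. The filter tested fewer members. For the other shifts the cause was not tested. Replicate numbers did not pair the arrays: deviations of same-numbered *sei* and WtCS arrays correlated at 0.03 to 0.53, those of *KCNQ* and WtPE at -0.04 to 0.08, and 1 of 5 *sei* arrays and 0 of 3 *KCNQ* arrays correlated best with their own number. With the replicate block 15 (12.3%), 0 (0.117%) and 1 (1.32%) genes passed in *sei* minus WtCS, *KCNQ* minus WtPE and the difference of effects. As the block was set within each mutant and its control, none was fitted between the control strains. No scaling moved the median of all probesets by 0.1. The deposited values hold no detection calls, so which members stood above background was not tested.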
